A study of Homo sapiens with 6 samples.

Results

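The 41 genes examined here are the NRF2 antioxidant and detoxification genes of AsPC-1 cells, a human pancreatic cancer cell line in long use. They are NFE2L2, which encodes NRF2, its inhibitor KEAP1, and 39 genes of the glutathione, thioredoxin, NADPH, aldo-keto reductase, ferritin, peroxidase, detoxification and export systems. They were selected by symbol from a list drawn up by role, with earlier results of these data known, and all 41 were found among the 58735 genes of the count table. SOD2 named 2 entries there, and the one with nearly all of the reads was used. RNA of 6 libraries was sequenced. The Vector group (n = 3) was labelled wild type and received an empty lentivirus, and the OE-MMP28 group (n = 3) received a lentivirus for overexpression of MMP28, a secreted matrix metalloproteinase. Per the methods of the study, the overexpression virus carried GFP and a puromycin resistance gene and was used to make stable lines, with no statement that single clones were picked. The labels did not say that replicates came from separate cultures, so p-values measure only the spread between these libraries, which may be technical.

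NRF2 is a transcription factor that KEAP1 holds in the cytoplasm and hands to a ubiquitin ligase for degradation. When electrophiles or oxidants modify cysteines of KEAP1, NRF2 escapes, enters the nucleus and binds with a small MAF protein to antioxidant response elements near genes of glutathione synthesis, NADPH supply, quinone reduction and drug export. In pancreatic cancer the pathway is known for keeping oxidants low and for tolerance of drugs.

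MMP28 was higher in every OE-MMP28 library. Its level in FPKM, a fragment count divided by gene length and by library total, was 5.17, 9.11 and 8.43 in the Vector libraries against 13.1, 13.9 and 15.1 in those of OE-MMP28. Values of single libraries are given throughout in the order of replicates 1, 2 and 3. Its log2 fold change was 0.90 (SE 0.19, adjusted p = 0.00226), and an exact permutation test (two-sided) of the FPKM values returned p = 0.1, the lowest possible with 3 libraries a group. Library totals were 13633249 to 16691458 counts. Of 5 markers of pancreatic duct epithelium, EPCAM, KRT8, KRT18 and KRT19 were high and KRT7 was low in both groups, and 1 passed the test, KRT19, which rose by 0.71 on the log2 scale (adjusted p = 0.00175). CD3E and KDR, markers of T cells and endothelium, had no count, PTPRC, COL1A2 and CDH5 had at most 1 count in any library, and LUM and LYZ, listed for fibroblasts and leukocytes, were expressed at means of 37.3 and 176 FPKM in the Vector group and 45.3 and 128 FPKM in the OE-MMP28 group. LYZ fell by 0.45 on the log2 scale (adjusted p = 0.0376). That call was lost without Vector replicate 2 (adjusted p = 0.0767), Vector replicate 3 (0.128) or OE-MMP28 replicate 3 (0.152), and with limma on log2 of FPKM. The endothelial marker PECAM1, with 0, 4 and 4 counts in the Vector libraries and 13, 21 and 30 in the OE-MMP28 libraries, had a log2 fold change of 2.79 (adjusted p = 0.00361). Summed over the 4 endothelial markers, the level was 0.0441 to 0.170 FPKM in the Vector and 0.179 to 0.293 FPKM in the OE-MMP28 libraries, with CDH5 and KDR at or near 0. VWF, the other endothelial marker with enough counts to test, did not rise. Its groups overlapped, at means of 0.0774 FPKM in Vector and 0.0635 FPKM in OE-MMP28, with a log2 fold change of -0.27 (adjusted p = 0.735). The part of these markers in the results below was not tested. Mitochondrial genes took 11.9% to 14.8% of counts in the Vector libraries and 8.80% to 11.9% in the OE-MMP28 libraries. With those genes left out, 12 of the NRF2-linked genes fell and 4 rose, beside 12.5% and 10.5% of all genes in that fit, against 12 and 5 with them.

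More of the NRF2-linked genes were lower than higher with MMP28 overexpression. Of 39 genes with enough counts to test, 12 fell, 5 rose and 22 did not pass the threshold, an adjusted p under 0.05, which 23.4% of all genes tested passed. Every adjusted p, unless another tool is named, is from edgeR's quasi-likelihood test (Benjamini-Hochberg). It was adjusted over all 15319 genes tested or, for an alternative fit, over the genes tested in that fit. Log2 fold changes are OE-MMP28 relative to Vector throughout. The genes that fell were 30.8% of those tested, against 11.6% of all 15319 genes, and the genes that rose were 12.8%, against 11.7%. The median log2 fold change was -0.31 for the 39 genes and 0.014 for all genes. The falls were NFE2L2, NQO1, GCLC, GCLM, GSR, ME1, AKR1C1, AKR1C2, GPX2, SOD2, UGDH and ABCC2, and the rises were KEAP1, AKR1B10, MGST1, ABCC1 and ABCC3. With an absolute log2 fold change over 1 required as well, 4 falls (ME1, AKR1C2, GPX2 and ABCC2) and 1 rise (AKR1B10) were left, against 4.32% and 3.06% of all genes. At an unadjusted p under 0.05 with the same fold change, the thresholds the study names, the counts were again 4 and 1, against 5.05% and 3.45% of all genes. These shares are of the present fit, in which 774 genes fell and 528 rose. The study reported fewer genes in either direction from its own fit. In such bulk RNA, fewer cells expressing a gene and less RNA of it per cell cannot be told apart.

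Taken library by library, the lower level was seen in each OE-MMP28 library. The median of the 39 genes, as log2 of scaled counts relative to the mean of the Vector libraries, was 0.080, -0.053 and -0.039 in the Vector libraries and -0.29, -0.26 and -0.25 in the OE-MMP28 libraries. In scaled counts the groups did not overlap for 16 genes lower and 5 genes higher in OE-MMP28, against 18.6% and 19.5% of all genes tested, and together these were 21 of 39, against 38.1%. Vector replicate 1 was the highest of the Vector libraries for 20 of the 39 genes, and the highest of all 6 libraries for 9 of the 12 genes that fell. Among the 22 genes that did not pass the threshold, Vector replicates 1 and 2 were each the highest Vector library for 9. How often Vector replicate 1 was the highest over all genes was not counted. Without it, 8 genes fell and 6 rose, beside 12.4% and 12.2% of all genes in that fit, and 7 of the 12 falls were kept (NFE2L2, ME1, AKR1C1, AKR1C2, GPX2, SOD2 and ABCC2). The count of falls was lowest without OE-MMP28 replicate 2, at 5 falls (ME1, AKR1C1, AKR1C2, GPX2 and ABCC2) and 3 rises. Fewer of all genes passed in that fit as well, 6.65% lower and 6.27% higher. Without OE-MMP28 replicate 3 there were also 3 rises, beside 8.78% of all genes.

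**Figure D1:**
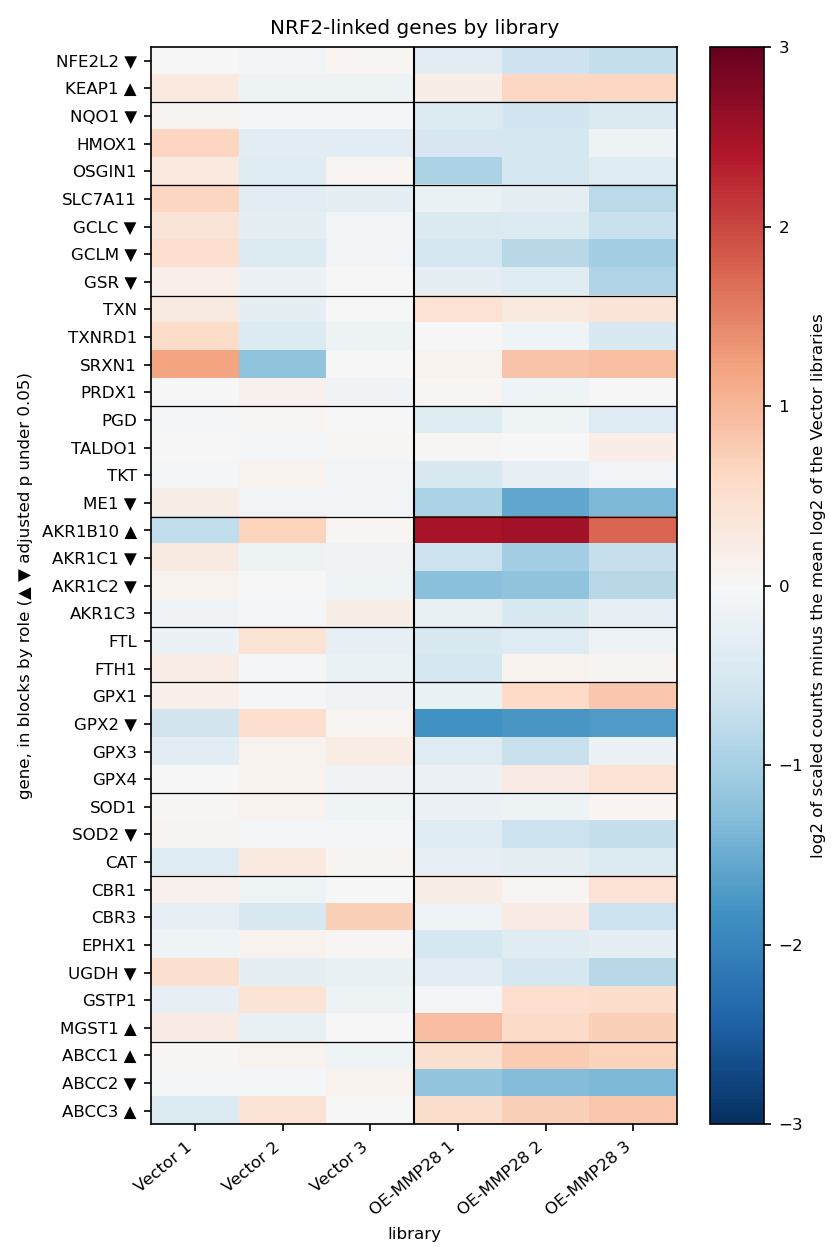
Each row is a gene and each column a library; the colour gives log2 of the scaled counts minus the mean log2 of the 3 Vector libraries, from blue (lower) to red (higher), and triangles mark genes with an adjusted p under 0.05. The rows of GPX2, ME1, AKR1C2 and ABCC2 are blue in all 3 OE-MMP28 libraries, AKR1B10 is red in all 3, and Vector replicate 1 is redder than the other Vector libraries for SRXN1, HMOX1, SLC7A11 and TXNRD1.

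The antioxidant response element was looked for at the starts of these genes. Its core, TGACNNNGC, was searched on both strands in RefSeq promoters of build GRCh38.p14, each from 250 bases before to 50 bases after an annotated start. Of the 41 genes, 31 had at least 1 of 45 such promoters, and 10 of the 31 held the core (32.3%), against 16.1% of all 27305 genes with promoters. Counted by promoter, it was in 24.4% of the 45 and in 13.3% of all 35116. The AP-1 motif TGANTCA, which can overlap the element, was in the promoters of 3 of 31 genes (9.68%) and of 9.37% of all genes. Of the genes with promoters, the core was found in 3 of 11 that fell (GCLM, GPX2 and ME1), 2 of 2 that rose (KEAP1 and MGST1) and 5 of 16 that did not pass the test (TXNRD1, PGD, CBR1, EPHX1 and GSTP1). The matches of the genes that passed the test are shown because the same core occurs beside genes that moved in opposite directions. Each is given 5′ to 3′ on the strand that reads TGACNNNGC, with the core in capitals and 10 bases on either side.
GCLM (chr1:93909446-93909474, plus strand): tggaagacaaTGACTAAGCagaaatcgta
GPX2 (chr14:64942849-64942877, plus strand): atccccaggaTGACTTAGCaaaaacaggt
ME1 (chr6:83431170-83431198, minus strand): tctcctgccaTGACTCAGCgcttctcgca
ME1 (chr6:83431022-83431050, plus strand): gctgctggggTGACGGTGCtgactgcagc
KEAP1 (chr19:10502784-10502812, plus strand): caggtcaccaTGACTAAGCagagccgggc
KEAP1 (chr19:10502807-10502835, minus strand): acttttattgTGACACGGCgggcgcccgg
MGST1 (chr12:16347135-16347163, plus strand): ggggacatcgTGACAAAGCaaattgtctg
The GCLM match began 34 bases before the RefSeq start, the GPX2 match 122 bases before it and the first ME1 match 137 bases before it. That ME1 match lay upstream of the annotated gene and overlapped the AP-1 motif, while the second began 11 bases after the start. The KEAP1 matches began 31 and 54 bases before a RefSeq start inside the gene, and the MGST1 match 30 bases after a RefSeq start that lies before the GENCODE 29 gene. The first base of the GCLM gene as annotated in GENCODE 29 is 1 of the 9 bases of its core, and the others lie upstream. The cores of GPX2, KEAP1 and MGST1 and of the second ME1 site lay wholly in exons of GENCODE 29 transcripts. A match is a stretch of letters and not a measured binding site. Sequence outside these windows was not searched, so a gene without a match here may still have the element farther away.

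The regulators moved in opposite directions. NFE2L2 (ENSG00000116044, chromosome 2, 177227595 to 177392697, minus strand; build GRCh38, as are all gene coordinates below) stood at 29, 27.2 and 29.6 FPKM in the Vector libraries and at 22.6, 18.4 and 17.1 FPKM in the OE-MMP28 libraries, from 1717 to 2650 counts per library. All 3 OE-MMP28 libraries lay below all 3 Vector libraries. The group levels were 28.6 ± 1.28 and 19.4 ± 2.92 FPKM (SD, n = 3 each), and NFE2L2 fell by 0.55 on the log2 scale (SE 0.15, adjusted p = 0.0105). It missed the threshold without Vector replicate 3 (adjusted p = 0.0587) and without OE-MMP28 replicate 2 (0.0671). A gene on the same strand, AC019080.1, overlapped 17.6% of its exon length and had 329 counts in all, so some reads could belong to either. KEAP1 (ENSG00000079999, chromosome 19, 10486120 to 10503741, minus strand), the substrate adaptor that marks NRF2 for degradation, stood at 19.4, 14.1 and 14.1 FPKM in the Vector libraries and 18.2, 23.8 and 23.8 FPKM in the OE-MMP28 libraries, from 716 to 1509 counts per library. The groups overlapped, since Vector replicate 1 lay above OE-MMP28 replicate 1. The group levels were 15.9 ± 3.04 and 21.9 ± 3.24 FPKM (SD, n = 3 each), and KEAP1 rose by 0.48 on the log2 scale (SE 0.17, adjusted p = 0.0468). Of the 17 calls this one was kept by the fewest alternatives: only 8 of 20 alternative fits kept it, and it missed the threshold without Vector replicate 2 (adjusted p = 0.126), Vector replicate 3 (0.2), OE-MMP28 replicate 2 (0.207) or OE-MMP28 replicate 3 (0.145). The KEAP1 matches to the element are among those printed above.

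As with genes in general, fewer calls held once the position of the gene was taken into account. For each gene a local median was taken, the median log2 fold change of the other tested genes within 10 Mb on either side, and was then entered as an offset. The local median was -0.22 around NFE2L2, and with the offset its log2 fold change was -0.33 (adjusted p = 0.138). For KEAP1 these values were 0.11, 0.37 and 0.156. Of the 17 genes that passed the threshold, 7 no longer did so with the offset (NFE2L2, KEAP1, NQO1, GSR, AKR1C1, UGDH and ABCC1). Over all genes the offset also left fewer calls, 7.19% higher and 7.99% lower. What lies behind the neighbours' shift was not tested.

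**Figure D2:**
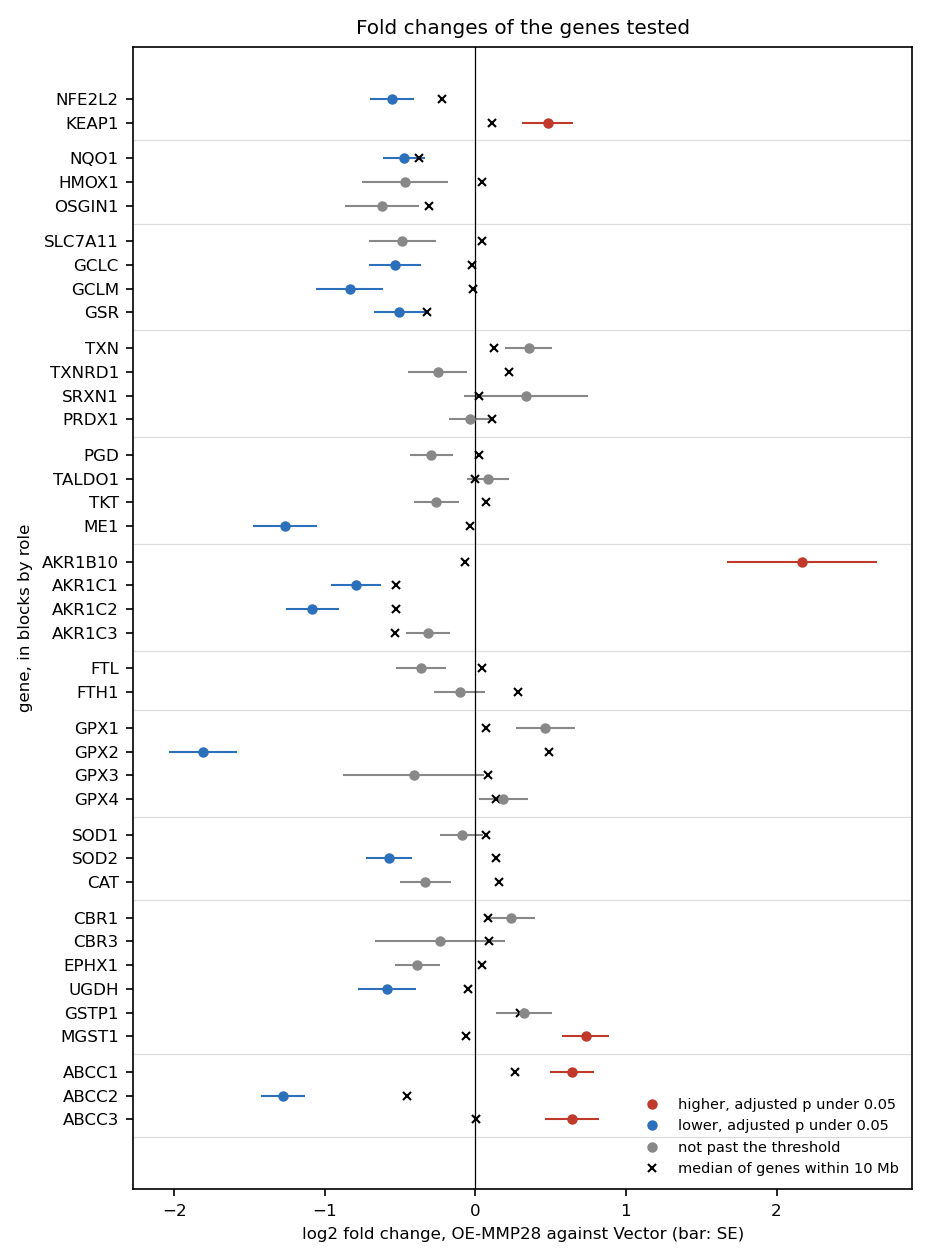
Points give the log2 fold change (OE-MMP28 relative to Vector) of each of the 39 genes tested, with bars of 1 SE, in blocks by role; red and blue mark an adjusted p under 0.05 (higher and lower), grey the other genes, and crosses the local median of genes within 10 Mb. AKR1B10 (2.17) and GPX2 (-1.81) are the farthest from 0, and 27 of the 39 points lie below 0.

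Of the 3 classical quinone, heme and stress targets, 1 fell and none rose, beside 11.6% and 11.7% of all genes tested. Neither this block of genes nor those below were tested as sets. NQO1 (ENSG00000181019, chromosome 16, 69706996 to 69726951, minus strand) encodes the quinone reductase that is the usual readout of NRF2. Its level was 165, 148 and 151 FPKM in the Vector libraries and 116, 102 and 113 FPKM in the OE-MMP28 libraries, from 5260 to 8195 counts per library. The lowest Vector library lay above the highest OE-MMP28 library. With group levels of 155 ± 8.98 and 110.4 ± 7.51 FPKM (SD, n = 3 each), NQO1 fell by 0.47 on the log2 scale (SE 0.14, adjusted p = 0.0175). It missed the threshold without Vector replicate 1 (adjusted p = 0.0512), Vector replicate 3 (0.0636) or OE-MMP28 replicate 2 (0.1), and with the local offset its log2 fold change was -0.10 (adjusted p = 0.673), beside a local median of -0.37. HMOX1, the heme oxygenase, was at 3.73, 1.88 and 1.89 FPKM in the Vector and 1.68, 1.63 and 2.08 FPKM in the OE-MMP28 libraries, with a log2 fold change of -0.47 (SE 0.28, adjusted p = 0.249). Only Vector replicate 1 stood apart for HMOX1. OSGIN1, a growth inhibitor induced by oxidative stress, had group levels of 2.23 ± 0.498 and 1.44 ± 0.262 FPKM (SD, n = 3 each) that did not overlap and a log2 fold change of -0.62 (SE 0.25, adjusted p = 0.075). Without Vector replicate 2 it passed the threshold, at -0.78 (adjusted p = 0.0305).

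In the glutathione group, 3 of 4 genes fell and none rose, beside 11.6% and 11.7% of all genes tested. GCLC and GCLM encode the catalytic and modifier subunits of glutamate-cysteine ligase, the rate-limiting enzyme of glutathione synthesis. GCLC (ENSG00000001084, chromosome 6, 53497341 to 53616970, minus strand) was at 14.7, 9.25 and 10.6 FPKM in the Vector and 8.44, 8.3 and 6.98 FPKM in the OE-MMP28 libraries, from 1015 to 1944 counts per library. Although the groups did not overlap, Vector replicate 1 was far above the other Vector libraries. GCLC fell by 0.53 on the log2 scale (SE 0.17, adjusted p = 0.0292), from 11.5 ± 2.85 to 7.91 ± 0.808 FPKM (SD, n = 3 each). Without Vector replicate 1 its log2 fold change was -0.32 (adjusted p = 0.199), and without OE-MMP28 replicate 2 or 3 its adjusted p was 0.0758 or 0.116. GCLM (ENSG00000023909, chromosome 1, 93885205 to 93909456, minus strand) was at 4.75, 2.51 and 3.18 FPKM in the Vector and 2.34, 1.86 and 1.62 FPKM in the OE-MMP28 libraries, from 148 to 394 counts per library. Again Vector replicate 1 was the highest and the groups were apart. GCLM fell by 0.83 on the log2 scale (SE 0.22, adjusted p = 0.0104), from 3.48 ± 1.15 to 1.94 ± 0.368 FPKM (SD, n = 3 each), and the value was -0.54 (adjusted p = 0.0701) without Vector replicate 1. The adjusted p was 0.0509 without OE-MMP28 replicate 2 and 0.0641 without OE-MMP28 replicate 3. Both subunits also missed the threshold when limma was run on log2(FPKM + 1) or log2(FPKM + 0.1).

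GSR (ENSG00000104687, chromosome 8, 30678061 to 30727999, minus strand), the reductase that regenerates glutathione with NADPH, was at 40.1, 31.7 and 36 FPKM in the Vector and 29.4, 27.2 and 18.9 FPKM in the OE-MMP28 libraries, from 1194 to 2303 counts per library. OE-MMP28 replicate 3 was the lowest, and the groups did not overlap. GSR fell by 0.50 on the log2 scale (SE 0.17, adjusted p = 0.0342), and only 12 of 20 alternative fits kept this call. Its adjusted p was 0.098 without Vector replicate 1, 0.0938 without Vector replicate 3, 0.0706 without OE-MMP28 replicate 2 and 0.158 without OE-MMP28 replicate 3. With the local offset it was 0.516, beside a local median of -0.32. SLC7A11, the cystine importer that supplies cysteine for glutathione, was at 12.8, 6.47 and 6.67 FPKM in the Vector and 7.23, 6.61 and 4.6 FPKM in the OE-MMP28 libraries. These groups overlapped, and its log2 fold change was -0.49 (SE 0.22, adjusted p = 0.12), or -0.66 (adjusted p = 0.0206) without Vector replicate 2.

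None of the 4 thioredoxin genes passed the test, beside 23.4% of all genes tested. TXN, the thioredoxin that reduces protein disulfides, had group levels of 194 ± 36.4 and 246 ± 15.4 FPKM (SD, n = 3 each), which did not overlap, and a log2 fold change of 0.35 (SE 0.15, adjusted p = 0.103). Without Vector replicate 1 that value was 0.50 (adjusted p = 0.0312). TXNRD1, the reductase that recharges thioredoxin, was at 159, 81.7 and 97.2 FPKM in the Vector and 108, 97.7 and 77.4 FPKM in the OE-MMP28 libraries. Its log2 fold change was -0.25 (SE 0.20, adjusted p = 0.387), and it turned to 0.084 without Vector replicate 1, the library in which TXNRD1 was highest. SRXN1, the sulfiredoxin that repairs overoxidised peroxiredoxins, varied widely within the Vector group, at 1.72, 0.329 and 0.754 FPKM in the Vector libraries against 0.82, 1.33 and 1.39 FPKM in the OE-MMP28 libraries. Its log2 fold change of 0.34 (SE 0.41, adjusted p = 0.597) became 1.12 (adjusted p = 0.0388) without Vector replicate 1 and -0.057 without Vector replicate 2. PRDX1, an abundant peroxiredoxin, had group levels of 211 ± 17.5 and 204 ± 16.8 FPKM (SD, n = 3 each) and a log2 fold change of -0.034 (SE 0.14, adjusted p = 0.894). SRXN1 shares 85.0% of its exon length with AL121758.1 on the same strand, and PRDX1 24.9% with MMACHC on the opposite strand, so reads there are uncertain. The direction for SRXN1 and TXNRD1 turned on single libraries.

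NADPH is the reductant used by GSR and TXNRD1. Among the 4 genes of NADPH supply and the pentose phosphate pathway, 1 fell and none rose, beside 11.6% and 11.7% of all genes tested. ME1 (ENSG00000065833, chromosome 6, 83210389 to 83431071, minus strand), the cytosolic malic enzyme, was at 5.28, 4.39 and 4.41 FPKM in the Vector and 2.46, 1.57 and 1.8 FPKM in the OE-MMP28 libraries, from 84 to 272 counts per library. Every OE-MMP28 library was lower than every Vector library by a wide margin. ME1 fell by 1.26 on the log2 scale (SE 0.21, adjusted p = 0.000263), from 4.69 ± 0.507 to 1.94 ± 0.46 FPKM (SD, n = 3 each), and all 20 alternative fits kept the call, with adjusted p from 5.88e-07 to 0.00486. PGD, TKT and TALDO1 belong to the pentose phosphate pathway. PGD had group levels of 51.2 ± 1.97 and 41.5 ± 3.88 FPKM (SD, n = 3 each), apart but with a log2 fold change of -0.29 (SE 0.14, adjusted p = 0.151). For TKT the groups overlapped in scaled counts, though not in FPKM (29.9 ± 2.01 and 24.8 ± 3.12 FPKM; SD, n = 3 each), and the log2 fold change was -0.26 (SE 0.15, adjusted p = 0.218). TALDO1 had the smallest difference of the 4, at 0.087 (SE 0.14, adjusted p = 0.7).

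The aldo-keto reductases, which reduce carbonyls, moved both ways. AKR1B10 (ENSG00000198074, chromosome 7, 134527592 to 134541408, plus strand), a retinal and aldehyde reductase, was almost silent in the Vector group, with 3, 7 and 5 counts in the Vector libraries and 29, 29 and 18 in the OE-MMP28 libraries. These were 0.113, 0.297 and 0.195 FPKM and 1.05, 1.05 and 0.613 FPKM, so all 3 OE-MMP28 libraries were above all 3 Vector libraries although both groups were at very low levels. AKR1B10 rose 4.49-fold, a log2 fold change of 2.17 (SE 0.50, adjusted p = 0.00334), and all 20 alternative fits kept the call. On log2(FPKM + 1) the same difference was 0.66, because that scale shrinks low values. AKR1B1 was not tested, since its counts were 0, 3 and 4 in the Vector libraries and 1, 2 and 0 in the OE-MMP28 libraries.

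AKR1C1 (ENSG00000187134, chromosome 10, 4963253 to 4983283, plus strand) and AKR1C2 (ENSG00000151632, chromosome 10, 4987400 to 5018031, minus strand), neighbouring and near-identical hydroxysteroid dehydrogenases, both fell. AKR1C1 was at 10.2, 7.5 and 7.7 FPKM in the Vector and 5.4, 4.08 and 5.07 FPKM in the OE-MMP28 libraries, from 567 to 1365 counts per library, and fell by 0.79 on the log2 scale (SE 0.17, adjusted p = 0.00203). AKR1C2 was at 5.63, 5.26 and 4.79 FPKM in the Vector and 2.2, 2.24 and 2.89 FPKM in the OE-MMP28 libraries, from 225 to 556 counts per library, and fell by 1.08 on the log2 scale (SE 0.18, adjusted p = 0.000198). For both, no OE-MMP28 library reached the Vector range. The local median there was -0.53, and with the offset AKR1C1 was at -0.26 (adjusted p = 0.315) and AKR1C2 at -0.55 (adjusted p = 0.0365). AKR1C3, the paralog with the highest level, was at 85.2 ± 8.55 and 68.1 ± 6.7 FPKM (SD, n = 3 each) with a log2 fold change of -0.31 (SE 0.14, adjusted p = 0.125), and the sign turned, to 0.22, with the offset. Reads may be shared between these paralogs, so their counts were also summed with those of AKR1C4: 7410, 6435 and 7849 counts in the Vector libraries and 6301, 5187 and 6454 in the OE-MMP28 libraries. The sum fell by 0.42 on the log2 scale (SE 0.14, adjusted p = 0.0371).

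Neither ferritin chain, FTL nor FTH1, which together store iron, passed the test. FTL had a log2 fold change of -0.36 (SE 0.17, adjusted p = 0.13) from group levels of 1320.3 ± 349.7 and 1019.8 ± 102 FPKM (SD, n = 3 each). FTH1 had a log2 fold change of -0.10 (SE 0.17, adjusted p = 0.705), which became 0.022 without Vector replicate 1 and 0.053 without OE-MMP28 replicate 1. On the opposite strand, BEST1 overlaps 62.4% of the exon length of FTH1.

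Of the 4 glutathione peroxidases, which spend glutathione to remove peroxides, only GPX2 passed the test, although the differences between these genes were not themselves tested. Among all genes tested, 23.4% passed. GPX2 (ENSG00000176153, chromosome 14, 64939152 to 64942905, minus strand), an epithelial enzyme of the gut, was at 11.2, 22.9 and 16.7 FPKM in the Vector and 4.68, 4.76 and 4.92 FPKM in the OE-MMP28 libraries, from 111 to 463 counts per library. The Vector libraries were spread widely and the OE-MMP28 libraries were nearly equal, but even the lowest Vector library was above them. GPX2 fell by 1.81 on the log2 scale (SE 0.23, adjusted p = 1.22e-05), from 16.9 ± 5.84 to 4.78 ± 0.12 FPKM (SD, n = 3 each), and all 20 alternative fits kept the call. Its neighbours moved the other way, with a local median of 0.49, and with the offset the log2 fold change was -2.30. GPX1, the abundant cytosolic form, was at 73.4, 64.7 and 61.6 FPKM in the Vector and 58.1, 99.3 and 115 FPKM in the OE-MMP28 libraries, with a log2 fold change of 0.46 (SE 0.20, adjusted p = 0.0934). Without OE-MMP28 replicate 1, the only one of that group below the Vector range, it was 0.69 (adjusted p = 0.00515). GPX4, which removes lipid peroxides, had a log2 fold change of 0.19 (SE 0.16, adjusted p = 0.438), and GPX3, the secreted form, was at 0.16 to 0.3 FPKM in all libraries and had a value of -0.41 (SE 0.47, adjusted p = 0.567).

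SOD2 was the only one of the 3 superoxide and catalase genes to pass the test, beside 23.4% of all genes tested. SOD2 (ENSG00000112096, chromosome 6, 159669057 to 159745186, minus strand), the mitochondrial superoxide dismutase, was at 6.23, 5.72 and 5.71 FPKM in the Vector and 4.58, 3.7 and 3.51 FPKM in the OE-MMP28 libraries, from 968 to 1571 counts per library. The groups were well apart. SOD2 fell by 0.57 on the log2 scale (SE 0.15, adjusted p = 0.00939), and it missed the threshold in 1 of 20 alternative fits, that without OE-MMP28 replicate 2 (adjusted p = 0.0661). The second table entry named SOD2 had 11 counts in all and was not tested. SOD1, the cytosolic dismutase, had a log2 fold change of -0.091 (SE 0.14, adjusted p = 0.693). CAT, the catalase that breaks down hydrogen peroxide, was at 14.4, 23.1 and 19.7 FPKM in the Vector and 15.9, 15.4 and 13.9 FPKM in the OE-MMP28 libraries. Its log2 fold change was -0.33 (SE 0.17, adjusted p = 0.171), or -0.50 (adjusted p = 0.0383) without Vector replicate 1, the only Vector library inside the OE-MMP28 range.

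**Figure D3:**
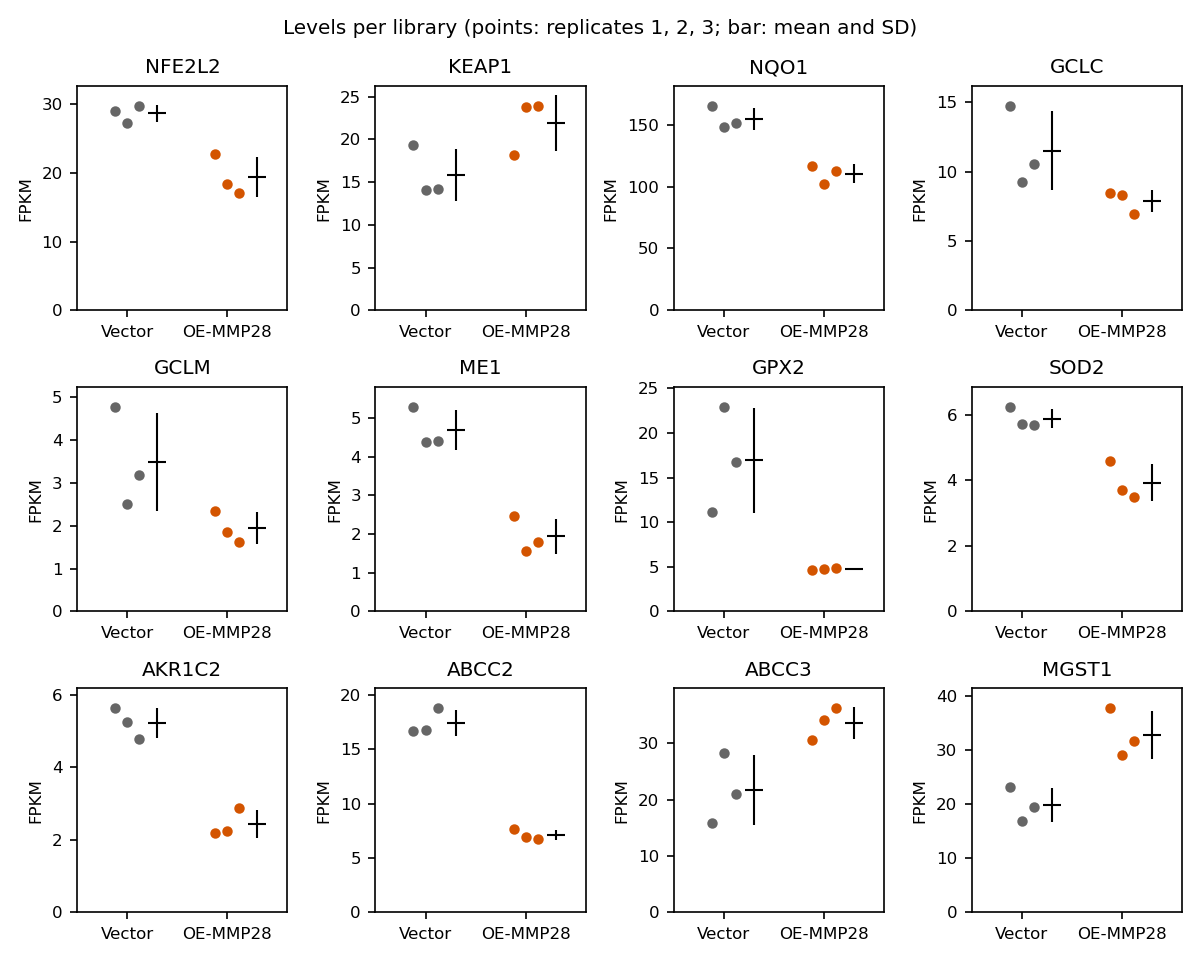
Each panel shows 1 gene, with FPKM on the vertical axis from 0, a point for each library (replicates 1, 2 and 3 from left to right) and a bar for the mean and SD. GPX2 is near 5 FPKM in all 3 OE-MMP28 libraries, GCLC and GCLM have their highest value in Vector replicate 1, and KEAP1 is the only panel of the 12 in which the groups overlap.

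Of 6 detoxification enzymes tested, 1 fell and 1 rose, beside 11.6% and 11.7% of all genes tested. MGST1 (ENSG00000008394, chromosome 12, 16347142 to 16609259, plus strand), a membrane glutathione transferase that also acts on lipid peroxides, was at 23.3, 16.9 and 19.5 FPKM in the Vector and 37.8, 29.1 and 31.7 FPKM in the OE-MMP28 libraries, from 1696 to 4447 counts per library. Each OE-MMP28 library was above the highest Vector library. MGST1 rose by 0.73 on the log2 scale (SE 0.16, adjusted p = 0.00216), and all 20 alternative fits kept the call. UGDH (ENSG00000109814, chromosome 4, 39498755 to 39528311, minus strand), which makes the UDP-glucuronate used in glucuronidation, was at 31, 18.4 and 18.9 FPKM in the Vector and 17.6, 15.3 and 12.3 FPKM in the OE-MMP28 libraries, from 836 to 1920 counts per library. The margin between the groups came mostly from Vector replicate 1, since the other Vector libraries lay just above the highest OE-MMP28 library. UGDH fell by 0.59 on the log2 scale (SE 0.19, adjusted p = 0.0309), but its log2 fold change was -0.30 (adjusted p = 0.246) without Vector replicate 1. Its adjusted p was 0.0908 without OE-MMP28 replicate 2, 0.148 without OE-MMP28 replicate 3 and 0.0631 with the local offset.

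The other detoxification enzymes did not pass the test. EPHX1, the microsomal epoxide hydrolase, came closest, with group levels of 38.6 ± 3.04 and 29.4 ± 2.25 FPKM (SD, n = 3 each) that did not overlap and a log2 fold change of -0.38 (SE 0.15, adjusted p = 0.0669). GSTP1, a cytosolic glutathione transferase, was at 69.7, 109 and 73.7 FPKM in the Vector and 80, 115 and 117 FPKM in the OE-MMP28 libraries. Its log2 fold change was 0.32 (SE 0.18, adjusted p = 0.218), or 0.55 (adjusted p = 0.0253) without Vector replicate 2, the Vector library in which it was highest. The carbonyl reductases CBR1 and CBR3 had log2 fold changes of 0.23 (SE 0.16, adjusted p = 0.319) and -0.24 (SE 0.43, adjusted p = 0.736), and that of CBR3 turned to 0.22 without Vector replicate 3. GSTM3, another glutathione transferase, was not tested, with 2, 1 and 4 counts in the Vector libraries and 4, 5 and 4 in the OE-MMP28 libraries.

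All 3 export pumps passed the test, beside 23.4% of all genes tested, and they moved in different directions. ABCC1, ABCC2 and ABCC3 encode the multidrug resistance proteins that carry glutathione, glucuronide and drug conjugates out of the cell. ABCC2 (ENSG00000023839, chromosome 10, 99782640 to 99852594, plus strand), the pump of the apical membrane, was at 16.7, 16.8 and 18.8 FPKM in the Vector and 7.69, 6.92 and 6.76 FPKM in the OE-MMP28 libraries, from 860 to 2168 counts per library. Spread within the groups was small beside the gap between them. ABCC2 fell by 1.28 on the log2 scale (SE 0.15, adjusted p = 4.53e-06), from 17.4 ± 1.18 to 7.13 ± 0.495 FPKM (SD, n = 3 each), the smallest adjusted p of the 39 genes. All 20 alternative fits kept it, including that with the local offset, where the log2 fold change was -0.82 (adjusted p = 0.000656) beside a local median of -0.46.

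ABCC1 (ENSG00000103222, chromosome 16, 15949577 to 16143074, plus strand), a pump of the basolateral membrane, was at 13.9, 14.6 and 12.4 FPKM in the Vector and 19.1, 22.9 and 21.3 FPKM in the OE-MMP28 libraries, from 1379 to 2745 counts per library. Its groups were apart, and ABCC1 rose by 0.64 on the log2 scale (SE 0.15, adjusted p = 0.00393). With the local offset its log2 fold change was 0.38 (adjusted p = 0.0893), beside a local median of 0.26. ABCC3 (ENSG00000108846, chromosome 17, 50634777 to 50692252, plus strand), also basolateral, was at 15.9, 28.2 and 21 FPKM in the Vector and 30.6, 34.1 and 36.2 FPKM in the OE-MMP28 libraries, from 2342 to 5851 counts per library. Vector replicate 2 came close to the OE-MMP28 libraries without reaching them. ABCC3 rose by 0.64 on the log2 scale (SE 0.18, adjusted p = 0.0122), and it missed the threshold without Vector replicate 1 (adjusted p = 0.0521), OE-MMP28 replicate 2 (0.0613) or OE-MMP28 replicate 3 (0.0557).

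**Figure D4:**
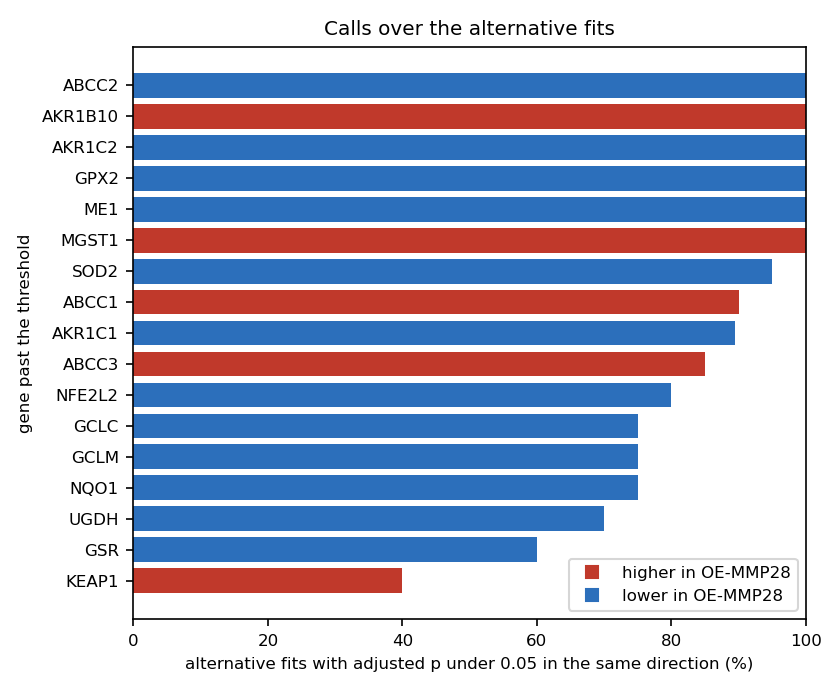
Bars give, for each of the 17 genes that passed the threshold, the percentage of alternative fits (19 or 20 a gene) in which its adjusted p stayed under 0.05 in the same direction, red for genes higher and blue for genes lower in OE-MMP28. ABCC2, AKR1B10, AKR1C2, GPX2, ME1 and MGST1 reach 100%, and KEAP1 is the lowest. The alternatives include the fits with summed counts, in which the counts of these genes are unchanged.

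The same question was put to 86 other genes of the pathway, listed for their roles. Of 78 with enough counts, 10 rose and 11 fell, 12.8% and 14.1% against the 11.7% and 11.6% of all genes given above, and their median log2 fold change was 0.023. The largest rise was that of NFE2L3, a transcription factor related to NRF2 that shares its small MAF partners. It was at 1.8, 1.67 and 1.56 FPKM in the Vector and 7.13, 7.24 and 7.15 FPKM in the OE-MMP28 libraries, with almost no spread within the groups. NFE2L3 rose by 2.10 on the log2 scale (SE 0.18, adjusted p = 7.57e-08), while NFE2L2 fell.

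Further rises were GSTZ1, an enzyme of tyrosine breakdown and a glutathione transferase, with a log2 fold change of 1.21 (adjusted p = 7.89e-05), and IDH2, which makes NADPH in mitochondria, at 0.66 (adjusted p = 0.00563). With the local offset GSTZ1 was at 0.60 (adjusted p = 0.0269), beside a local median of 0.61. DPP3, a peptidase that binds KEAP1, rose by 0.81 on the log2 scale (adjusted p = 0.00224), but had an adjusted p of 0.0577 with the local offset. For TXNRD3, a thioredoxin and glutathione reductase, the log2 fold change was 0.77 (adjusted p = 0.00831). It missed the threshold without OE-MMP28 replicate 2 (adjusted p = 0.053) and had an adjusted p of 0.272 with the local offset. The largest fall among those with a mean of at least 1 FPKM was that of CHAC1, which degrades glutathione, from 2.72 ± 1.29 to 0.781 ± 0.185 FPKM (SD, n = 3 each), a log2 fold change of -1.78 (SE 0.35, adjusted p = 0.00104). SULT1A1, a sulfotransferase for phenols, had a value of -1.48 (adjusted p = 2.51e-05). BLVRA, the biliverdin reductase that acts after HMOX1, was at 15.8, 15.3 and 15.7 FPKM in the Vector and 8.51, 7.93 and 7.51 FPKM in the OE-MMP28 libraries. BLVRA fell by 0.96 on the log2 scale (SE 0.17, adjusted p = 0.000407), with groups far apart. TXNIP, the inhibitor of thioredoxin, had a log2 fold change of -0.94 (adjusted p = 0.000387), and MTHFD2, a mitochondrial folate enzyme that yields reduced cofactors, one of -0.60 (adjusted p = 0.0106). The MTHFD2 call was lost without OE-MMP28 replicate 2 (adjusted p = 0.0658) or 3 (0.0503) and with the local offset (adjusted p = 0.637).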

How the data were processed

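RNA of 6 AsPC-1 libraries was sequenced after library preparation with an NEBNext Ultra kit. The table deposited by the authors holds, for every gene and library, the raw read count, neither normalized nor pooled, and the FPKM value. The submitters' processing notes name HISAT2 2.0.5 and featureCounts 1.5.0-p3; the strand and multi-mapping settings were not given in the sources used here. Identifiers and coordinates of all 58735 genes equalled those of GENCODE 29 on GRCh38. The deposited columns of the authors' own comparison (fold changes and p-values) were not used.

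Genes were kept by filterByExpr (minimum count 10, minimum total 15) and scaled by TMM, and OE-MMP28 was compared with Vector by edgeR 4.0.16 (quasi-likelihood test, group as the only term, R 4.3.3), with Benjamini-Hochberg adjustment over 15319 genes. The SE is the log2 fold change divided by the square root of F. Levels are FPKM, with SD over 3 libraries. The script was tested on simulated data.

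Alternatives were each library left out, a replicate block, DESeq2 size factors, upper-quartile factors, no filter, a filter of 1 CPM in 3 libraries, DESeq2 1.42.0, limma 3.58.1 (voom, and log2 of FPKM plus 1 or 0.1), no mitochondrial genes, the local-median offset with and without the block, counts summed with pseudogenes, and AKR1C counts summed. The fits with summed counts left the counts of the single genes that passed the threshold unchanged. For those genes they could only repeat the main fit, although they are among the alternatives counted.

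All members could be named; those that passed the threshold have FPKM per library and the range of their counts, and of the other pathway genes the 5 largest rises and 5 largest falls with a mean of at least 1 FPKM are named. The members and lists were chosen with earlier results of these data known. Library totals of 13633249 to 16691458 counts set the floors, which cover counting error only. SE and SD also carry the spread between these libraries.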

Additional observations from a re-analysis of the deposited data

How the results depend on the processing

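With 3 libraries a group, the counts of genes past the threshold changed with the library left out. Such fits also had fewer libraries, and the 2 effects were not separated. With each library left out in turn, the NRF2-linked genes that rose numbered 3 to 6 and those that fell 5 to 14, while 6.27% to 12.2% of all genes rose and 6.65% to 12.4% fell. In the same fits the other pathway genes that rose numbered 5 to 14 and those that fell 5 to 11. With the local-median offset, 3 of the NRF2-linked genes rose and 7 fell, beside 7.19% and 7.99% of all genes, and 5 other pathway genes rose. With that offset and a replicate block together, 3 NRF2-linked genes and 6 other pathway genes rose, beside 7.68% of all genes. With an absolute log2 fold change over 1 required, beside either an adjusted or an unadjusted p under 0.05, 1 NRF2-linked gene rose and 4 fell, and 2 other pathway genes rose and 5 fell (all genes: 3.06% and 4.32% with the adjusted p, 3.45% and 5.05% with the unadjusted p). The median log2 fold change of the NRF2-linked genes was -0.36 with upper-quartile factors. The sign turned for 6 genes that did not pass the threshold with all libraries. With each library left out in turn, the log2 fold change was -0.44 to 0.084 for TXNRD1, -0.057 to 1.12 for SRXN1, -0.10 to 0.027 for PRDX1 (0.0079 without OE-MMP28 replicate 2), -0.22 to 0.053 for FTH1 (0.022 without Vector replicate 1) and -0.48 to 0.22 for CBR3; for AKR1C3 it was 0.22 with the local offset, with and without the block. The cause was not tested. No gene that passed the threshold changed sign under any of the 20 alternatives. Of 776 values of the NRF2-linked genes under the alternatives, 701 kept their direction and their side of the threshold, 53 fell short of it and 13 newly passed it. These include the fits with summed counts, which left the counts of most of these genes unchanged.

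The labels number the replicates 1 to 3 in both groups. The deviations of same-numbered libraries correlated at 0.017, 0.0080 and -0.088, and no library correlated best with its own number. With 3 libraries a group, such correlations cannot show whether same-numbered libraries were handled together. With the replicate block 5 NRF2-linked genes rose and 12 fell, and 10 other pathway genes rose and 12 fell. In that fit 12.04% of all genes rose and 12.02% fell.

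A count of 0 allows up to 3 counts, or 0.180 to 0.220 CPM (counts scaled to the library total), so AKR1B1 and GSTM3 could not be compared at this depth, and AKR1B10 and GPX3 lay close to it.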

Other observations

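CBR3-AS1, an RNA from the strand opposite to CBR3 that overlaps 42.2% of its exon length, was singled out after its values were seen. It had 83 counts in all 6 libraries together and a log2 fold change of -1.98 (adjusted p = 0.00416, edgeR's quasi-likelihood test), beside -0.24 (adjusted p = 0.736) for CBR3. Whether the counting separated the strands is not given in the sources used here, so the reads of the pair cannot be told apart.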
